A study of Gallus gallus with 6 samples.

Results

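Cytosolic ribosomal protein genes were examined in RNA-sequencing libraries of chick wing explants cultured with or without an inhibitor of Fgf receptors. Members were chosen by their symbol in the authors' files (RPL or RPS followed by a number, with or without a closing letter, plus RPLP0, RPLP1, RPLP2 and RPSA), and 66 of the 21062 genes in the files met the rule. Of these, 42 encode large subunit and 24 encode small subunit proteins, or their like-named copies. RPSA itself is not among the symbols. Wild-type (WT) wing bud tissue was dissected at Hamburger Hamilton stage 20 (HH20) from the posterior-distal part of the bud, embedded in Matrigel and cultured for 48 h in medium with serum. To the medium was added either SU5402 at 5 µM, which blocks Fgf receptor signalling, or its solvent DMSO alone. There were 3 libraries per treatment, each from pooled explants of 1 replicate experiment, so the spread between libraries is that between such pools.

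The cytosolic ribosome is built from a large and a small subunit, each a core of ribosomal RNA coated by a set of proteins. Most of these proteins are needed in equal numbers. Ribosomal protein mRNAs are among the most abundant of growing cells, and most begin with a run of pyrimidines, the TOP motif, through which growth signalling by the mTOR kinase controls their translation. In embryonic tissue their level is widely read as a mark of growth, and transcription factors of the Myc family are known to raise it. Mutations in these genes cause Diamond-Blackfan anaemia in people.

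Between 25849833 and 44261768 reads fell on genes in the 6 libraries, and between 1460734 and 2558801 of them on the 66 members. Values of single genes are normalized counts, that is reads divided by the authors' DESeq2 size factor of the library, and levels of different genes are compared per length, as FPKM. Changes are log2 fold changes of SU5402 against DMSO, negative where the level was lower with SU5402, on the scale of log2(normalized count + 1). They were tested with limma, with p-values adjusted by Benjamini and Hochberg's method across the 16324 genes reaching 10 normalized counts in 3 or more libraries, and a gene is called at an adjusted p below 0.05. MKP3, a target of Fgf signalling, had 3443, 3279 and 3595 normalized counts with DMSO and 572, 453 and 507 with SU5402, a change of -2.75 (SE 0.10, limma adjusted p = 1.8e-04). The limb mesenchyme genes PRRX1, TBX5 and TWIST1 were expressed in both treatments, and so were genes of ectoderm, which the explants also contain although the labels name mesenchyme alone.

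Ribosomal protein genes were lower with SU5402 in both subunits. Together the 66 members took 6.002%, 5.78% and 6.02% of all reads in DMSO replicates 1, 2 and 3, and 4.97%, 4.87% and 5.14% in SU5402 replicates 1, 2 and 3. The 2 treatments did not overlap. The mean share fell from 5.93% ± 0.13 (SD, n = 3) to 4.99% ± 0.14, a difference of -0.94 percentage points. Large subunit genes went from 3.60% ± 0.07 to 3.02% ± 0.07 and small subunit genes from 2.33% ± 0.06 to 1.97% ± 0.07. Over the same libraries the genes of the mitochondrial genome rose from 3.98% ± 0.03 to 5.04% ± 0.19 of reads, and without them in the total the share of ribosomal protein genes was 6.18% with DMSO and 5.26% with SU5402. A share of reads does not depend on size factors, but in bulk tissue fewer cells of a type and less RNA per cell cannot be told apart.

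**Figure D1:**
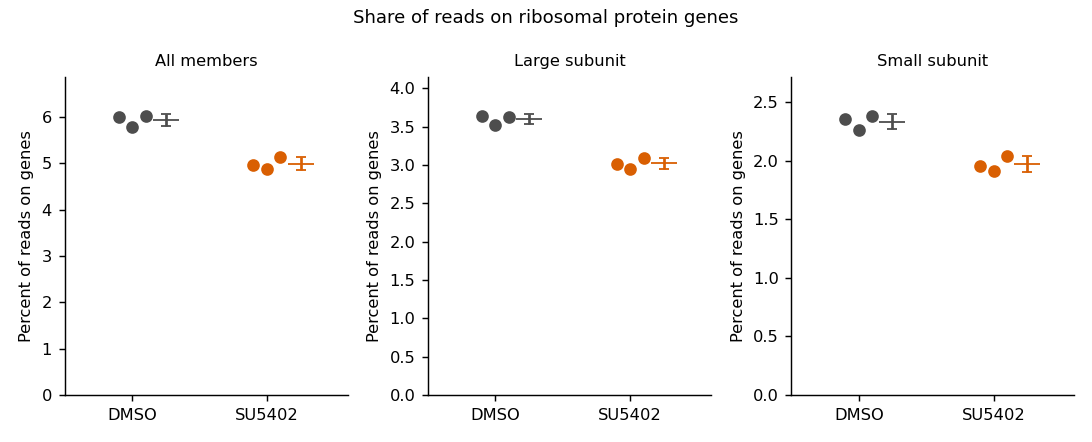
Percent of all reads on genes (vertical axes, from 0) that fell on ribosomal protein genes, for all 66 members, the 42 large subunit and the 24 small subunit members. Points are the 3 libraries of each treatment and bars the mean ± SD, and the SU5402 libraries sit at 4.87% to 5.14% for all members against 5.78% to 6.02% with DMSO.

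Of the 66 members 65 had enough reads to be tested, RPS26 being the exception. By limma, 46 of the 65 (70.8%) were called lower with SU5402 and none was called higher. Over all genes tested, 16.0% were called lower and 14.4% higher, 30.4% in all. No member was called with a change of more than 2-fold, whereas 10.8% of all genes tested were called and did so, 4.54% lower and 6.26% higher. At an unadjusted limma p below 0.05 there were 56 members, all of them lower, beside 6967 of the 16324 genes tested, in either direction. edgeR's quasi-likelihood test, with TMM or RLE, and DESeq2, all run on the recovered reads, each called 58 members lower and none higher. They also called more genes in all, 6173, 6175 and 6280 against 4958 by limma. Of these, 3244, 3257 and 3309 were lower, against 2607 by limma. Without the filter on low values limma called 36 members lower. Over all genes it then called 3989, of which 2053 were lower. With upper-quartile scaling 37 members were called lower, beside 2151 lower among 5016 genes called. With a block for replicate number it was 17 members, beside 1750 lower among 3380 genes called. For 59 members every SU5402 library was below every DMSO library, which was so for 25.6% of all genes tested, and 61 had a log2 fold change below 0, against 48.9%. The number of calls fell with 1 library left out and depended on which one it was. Without DMSO replicate 1, 2 or 3, limma called 26, 31 and 21 members lower. Over all genes tested, 1880, 1662 and 1685 were then called lower. Without SU5402 replicate 1, 2 or 3 it was 22, 26 and 38 members, beside 1848, 1970 and 1949 of all genes. No member was called higher in any of these fits.

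The fall was of similar size in most members. The median log2 fold change of the 65 members was -0.29, beside 0.01 for all genes tested, with quartiles of -0.34 and -0.23. Among the 62 members with a mean FPKM of at least 50 the log2 fold changes had an SD of 0.09 between genes. Their median limma SE was 0.06, which comes from the spread between libraries and does not measure that expected between genes. Against the mean of the DMSO libraries, the median member stood at 0.03, -0.05 and 0.01 on the log2 scale in DMSO replicates 1, 2 and 3 and at -0.29, -0.34 and -0.25 in SU5402 replicates 1, 2 and 3. SU5402 replicate 2 was thus the lowest library and SU5402 replicate 3 the highest of its treatment. In SU5402 replicate 1, 61 of the 65 members lay below every DMSO library, and in replicates 2 and 3 it was 60 each. The matching share of all genes tested was not computed for single libraries. Scaling each library to its total reads gave a median of -0.24 with 42 members called lower, and the median of all genes moved to 0.06.

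**Figure D2:**
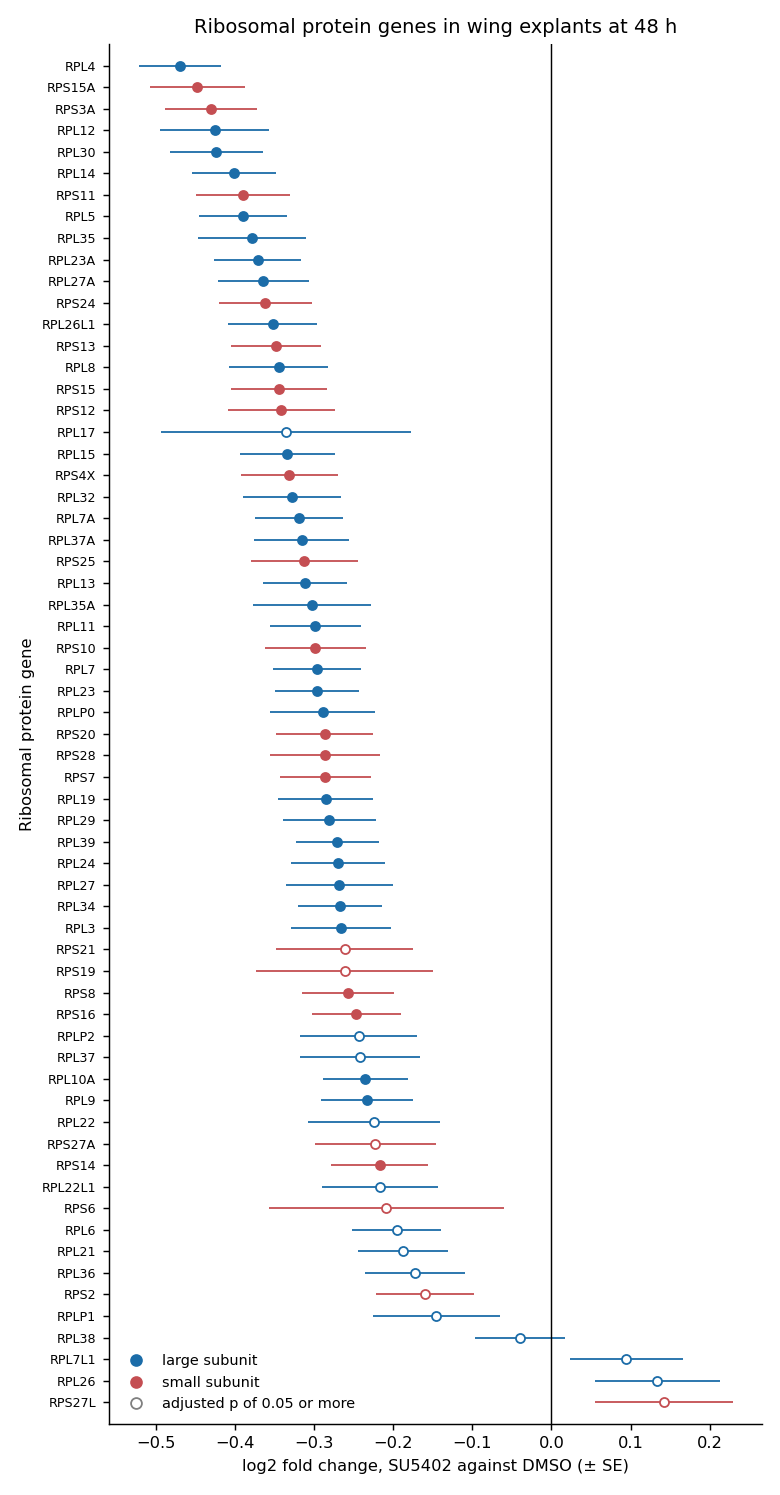
Log2 fold change (horizontal axis, ± SE from limma, 3 libraries per treatment) of 63 ribosomal protein genes, ordered by size and coloured by subunit, with filled points for an adjusted p below 0.05. RPL3L, with an SE of 1.07, and RPS26, which was not tested, are left out, as is 1 gene that is not reported singly, and 60 of the genes shown sit below 0 with the 2 subunits intermixed.

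The order of the members is given by what their proteins do, beginning with those that fell most. RPL4 (ENSGALG00000007711; GRCg6a chromosome 10, 18942659 to 18948763, minus strand) encodes a large subunit protein that reaches into the tunnel through which the new peptide leaves. It had 85717, 84355 and 84986 normalized counts with DMSO and 62459, 59471 and 62336 with SU5402. No SU5402 library came near the DMSO libraries, and RPL4 had the largest fall of all members, -0.47 (SE 0.05, limma adjusted p = 0.0029), or 27.8% less. Among other proteins of the tunnel and its exit, singled out with their values known, RPL23A and RPL35, which sit at the exit where factors that handle new peptides dock, changed by -0.37 (SE 0.05, limma adjusted p = 0.0071) and -0.38 (SE 0.07, limma adjusted p = 0.013). RPL39, a very small protein inside the tunnel, was called lower as well, at -0.27 (SE 0.05, limma adjusted p = 0.016). RPL17, also a protein of the tunnel, was not called in the main limma fit, at -0.34 (SE 0.16, limma adjusted p = 0.17).

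RPS15A (ENSGALG00000051431; chromosome 14, 8714188 to 8720429, minus strand), a small subunit protein bound to the core of its ribosomal RNA, had 25241, 23607 and 25488 normalized counts with DMSO and 18001, 17758 and 18744 with SU5402. Its libraries were well apart between treatments, at -0.45 (SE 0.06, limma adjusted p = 0.0052). For RPS3A (ENSGALG00000010077; chromosome 4, 33235392 to 33239654, plus strand), which lies beside the path of the mRNA out of the small subunit, counts were 74659, 69920 and 73400 with DMSO and 55576, 52328 and 53857 with SU5402. The change was -0.43 (SE 0.06, limma adjusted p = 0.0052). RPL30 (ENSGALG00000029897; chromosome 2, 127365381 to 127369732, minus strand), whose yeast protein binds its own transcript, had 20125, 18461 and 19110 with DMSO and 14077, 14568 and 14360 with SU5402, and changed by -0.42 (SE 0.06, limma adjusted p = 0.0057). These 3 genes, with RPL4 and RPL12, had the 5 largest falls among members.

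The stalk of the large subunit, which recruits elongation factors, is made of the RPLP proteins on a base that RPL12 adjoins. RPL12 (ENSGALG00000008806; chromosome 17, 1924726 to 1946331, plus strand) had 14912, 14524 and 15609 normalized counts with DMSO and 11252, 10505 and 11804 with SU5402, a change of -0.43 (SE 0.07, limma adjusted p = 0.0093). Its annotated span overlaps other genes, on the opposite strand too, and whether the libraries keep strand is not given in the sources used here. The same limit holds for other members. In all, 29 members overlap another gene, and 11 of these do so on the opposite strand, RPL35, RPL7, RPL3, RPL22 and RPL37 among them. RPLP0, which anchors the stalk, had 66536, 62060 and 61653 with DMSO and 54319, 49398 and 52020 with SU5402, and fell by 0.29 on the log2 scale (SE 0.07, limma adjusted p = 0.026). The stalk tips did not pass in the main limma fit. RPLP2 had a value of -0.24 (SE 0.07, limma adjusted p = 0.06). It was called by edgeR with TMM (adjusted p = 0.0027) or RLE and by DESeq2 (adjusted p = 1.8e-04). Limma with a filter of 50 or an intensity trend called it too, and no other alternative did. RPLP1 (ENSGALG00000030878; chromosome 2, 145698580 to 145699798, plus strand) had 41456, 37964 and 38152 with DMSO and 36207, 32570 and 37645 with SU5402. These groups lay close together, with SU5402 replicate 3 just under DMSO replicate 2, and the value was -0.15 (SE 0.08, limma adjusted p = 0.23). Among the alternatives only DESeq2 called RPLP1 (adjusted p = 0.046).

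RPL5 and RPL11 carry the 5S ribosomal RNA into the large subunit, and free of the ribosome they bind MDM2, which frees p53. RPL5 (ENSGALG00000005922; chromosome 8, 14447758 to 14455256, minus strand) had 49132, 46846 and 48729 normalized counts with DMSO and 36391, 36010 and 38097 with SU5402, a change of -0.39 (SE 0.06, limma adjusted p = 0.0063). RPL11 (ENSGALG00000030378; chromosome 23, 5714104 to 5718468, plus strand) had 27431, 25347 and 26574 with DMSO and 21286, 21195 and 22020 with SU5402, a change of -0.30 (SE 0.06, limma adjusted p = 0.016). Both were lower in each SU5402 library than in any DMSO library. RPS19, the gene first tied to Diamond-Blackfan anaemia, had 46931, 42208 and 43319 with DMSO and 37430, 32097 and 41493 with SU5402. It varied widely within SU5402, and its value of -0.26 (SE 0.11, limma adjusted p = 0.14) did not pass in the main limma fit. RPS19 was called by edgeR with TMM (adjusted p = 0.015) or RLE and by DESeq2 (adjusted p = 0.0027). Limma with an intensity trend called it too, and no other alternative did. RPS20, the median member by fold change, had 25923, 23648 and 24655 with DMSO and 20052, 19893 and 20887 with SU5402, at -0.29 (SE 0.06, limma adjusted p = 0.022).

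Of the 3 members on chromosome Z, RPS6 and RPL17 differed most between libraries of the same treatment. RPS6 (ENSGALG00000015082; chromosome Z, 33736390 to 33740880, minus strand), which S6 kinases phosphorylate in response to growth signals, had 65715, 60532 and 76324 normalized counts with DMSO and 48722, 65704 and 61423 with SU5402. The treatments overlapped, and the value was -0.21 (SE 0.15, limma adjusted p = 0.34). RPL17 (chromosome Z, 1077920 to 1081538, plus strand), a protein of the exit tunnel, had 32311, 31142 and 37027 with DMSO and 21324, 30282 and 28699 with SU5402, at -0.34 (SE 0.16, limma adjusted p = 0.17). RPL17 was called by edgeR with TMM (adjusted p = 0.027) or RLE and by limma with an intensity trend, and by no other alternative. A further gene without a symbol is described in the files as ribosomal protein L17, so the split of reads between the copies is uncertain. RPL37, the last of the 3, varied less, with 21487, 19094 and 21672 with DMSO and 16705, 17944 and 17957 with SU5402. It was at -0.24 (SE 0.08, limma adjusted p = 0.065).

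The other genes of chromosome Z moved in the same libraries. Over the 715 of them that were tested, the median level against the DMSO mean was -0.02, -0.06 and 0.09 on the log2 scale in DMSO replicates 1, 2 and 3 and -0.05, 0.28 and 0.08 in SU5402 replicates 1, 2 and 3. Chick females carry chromosome W and 1 copy of Z. The 55 genes of chromosome W that were tested summed to 56214, 58630 and 32442 normalized counts with DMSO and 69053, 13163 and 40573 with SU5402, lowest in the library where Z genes were highest. The part of this in the values of RPS6, RPL17 and RPL37 was not tested. Without the members on Z, an alternative chosen after the values were seen, 46 of 62 members were called lower and the median log2 fold change was -0.29.

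**Figure D3:**
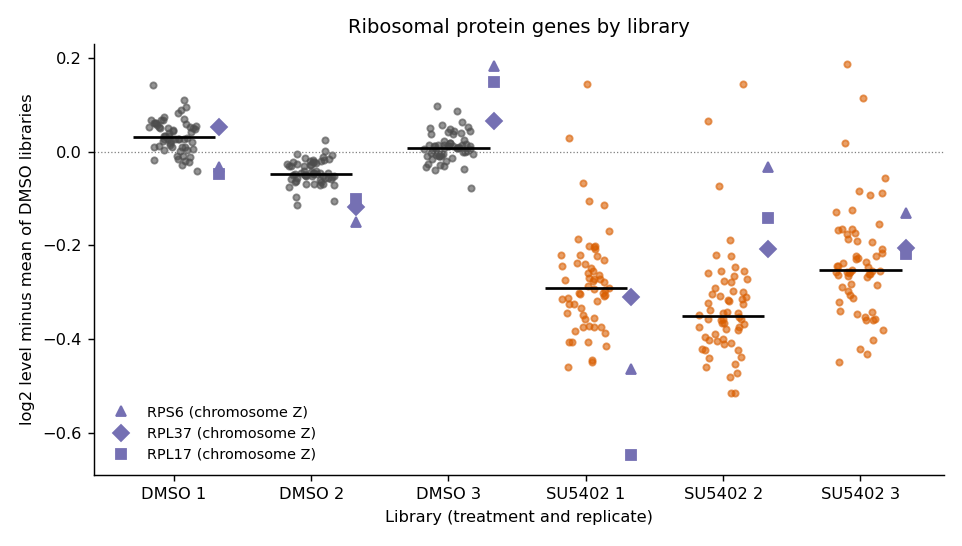
Level of 63 ribosomal protein genes with at least 1000 normalized counts on average in each library, as log2 level minus the mean of the DMSO libraries (vertical axis). Circles are single genes, black lines the median of the genes that are not on chromosome Z, and purple symbols the 3 genes on chromosome Z, of which RPS6 and RPL17 vary most between libraries of a treatment.

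The medians of the large and the small subunit were close to each other. Of 42 large subunit members tested, 29 were called lower and the median log2 fold change was -0.29. Of 23 small subunit members tested, 17 were called lower, with a median of -0.29 as well. Taken as the mean log2 level of the 41 large and 22 small subunit members with at least 1000 normalized counts on average, large minus small was -0.33, -0.32 and -0.33 in DMSO replicates 1, 2 and 3 and -0.31, -0.28 and -0.31 in SU5402 replicates 1, 2 and 3. By this measure large subunit genes fell by 0.27 and small subunit genes by 0.30 on the log2 scale. The values of the treatments did not overlap, and their means differed by 0.03, with SDs of 0.007 with DMSO and 0.017 with SU5402. The 41 large subunit members include the like-named copies RPL26 and RPL7L1, at log2 fold changes of 0.13 and 0.09. RPS27L, a small subunit copy at 0.14, had fewer than 1000 normalized counts and is left out. The part of these copies in the difference was not tested. The sign of the difference between the subunit medians, which was -0.001, turned whenever any 1 of the 6 libraries was left out, to between 0.004 and 0.018, and also with edgeR and DESeq2.

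Levels of members spanned a wide range although the ribosome holds most of its proteins in equal numbers. Per length, 61 of the 66 members had a mean above 100 FPKM over the 6 libraries and 23 above 1000. The highest were RPLP1 with 2214 ± 111 FPKM with DMSO (SD, n = 3) and 2004 with SU5402, RPS19 with 2270 ± 127 and 1903, and RPS6 with 2209 ± 263 and 1918. These 3 lay within each other's spread. FPKM values rest on the annotated gene length, which runs from 366 to 4875 bases among members, far from the sizes of their proteins, so part of the range may reflect the annotation. Across the 63 members with at least 1000 normalized counts on average, the log2 fold change had a rank correlation of 0.006 with the mean FPKM and of -0.20 with gene length, given as a description over genes that share libraries.

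A few members stood at or above their DMSO level. RPL38 (ENSGALG00000001465; chromosome 18, 9097963 to 9100480, plus strand), chosen for mention after its values were seen, encodes a large subunit protein that in mouse embryos is needed for the translation of a subset of Hox mRNAs. It had 10056, 10087 and 10502 normalized counts with DMSO and 9756, 9713 and 10341 with SU5402. The treatments overlapped, with a value of -0.04 (SE 0.06, limma adjusted p = 0.63), which was 0.01 when libraries were scaled to total reads and 0.02 with upper-quartile scaling. RPL7L1 (chromosome 4, 54538589 to 54542357, minus strand), related to a ribosome assembly factor of yeast, had 7261, 6607 and 6926 with DMSO and 7072, 7250 and 7889 with SU5402, at 0.09 (SE 0.07, limma adjusted p = 0.37). RPS27L (chromosome 10, 4594910 to 4600543, plus strand), a p53 target in human cells, had 783, 762 and 837 with DMSO and 903, 792 and 939 with SU5402, at 0.14 (SE 0.09, limma adjusted p = 0.28). RPL26 had 1908, 1652 and 1638 with DMSO and 1909, 1911 and 1871 with SU5402, at 0.13 (SE 0.08, limma adjusted p = 0.25). None of these genes passed the test in either direction.

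RPL26 lies next to RPL26L1 on chromosome 13, and most reads of the pair were counted on RPL26L1. RPL26L1 (ENSGALG00000002868; 9856065 to 9860391, plus strand) had 28415, 26246 and 27065 normalized counts with DMSO and 21397, 21137 and 21466 with SU5402, and was called lower at -0.35 (SE 0.06, limma adjusted p = 0.0089). Per length, RPL26 (9861486 to 9871095, plus strand) had 3.49%, 3.27% and 3.14% of the FPKM of RPL26L1 with DMSO and 4.63%, 4.70% and 4.53% with SU5402. As counted, RPL26L1 was thus by far the higher copy in every library. Reads of near-identical copies can be split between them in counting, so the ratio is uncertain.

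Other copies were set against their partners in the same way, 4 tested ratios in all. The ratio of RPL3L to RPL3, with few reads on RPL3L, was not tested and is not among them. RPL22L1, a copy of RPL22, was at 63.5%, 62.8% and 66.7% of the FPKM of RPL22 with DMSO and 65.7%, 67.8% and 60.7% with SU5402. The ratio differed by 0.01 on the log2 scale (exact permutation test, two-sided, p = 1, n = 3 and 3), and both genes were close to the other members, at -0.22 each (limma adjusted p = 0.099 for RPL22 and 0.079 for RPL22L1). RPL22 and RPL22L1 were not called in the main limma fit, but both were by edgeR with TMM or RLE, DESeq2 and limma with an intensity trend. RPL22 was also called without SU5402 replicate 3 (limma adjusted p = 0.049). RPL7L1 was at 19.0%, 17.2% and 17.2% of RPL7 with DMSO and 22.5%, 23.3% and 24.2% with SU5402. RPL7 itself was called lower, at -0.30 (SE 0.06, limma adjusted p = 0.015). RPS27L was at 0.50%, 0.53% and 0.55% of RPS27 with DMSO and 0.73%, 0.69% and 0.72% with SU5402. For these last 2 ratios and for RPL26 to RPL26L1 the treatments did not overlap, with log2 differences of 0.39, 0.44 and 0.49. The exact permutation p was 0.1 for each, the smallest that 3 against 3 libraries can give, and 0.13 adjusted over the 4 ratios.

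**Figure D4:**
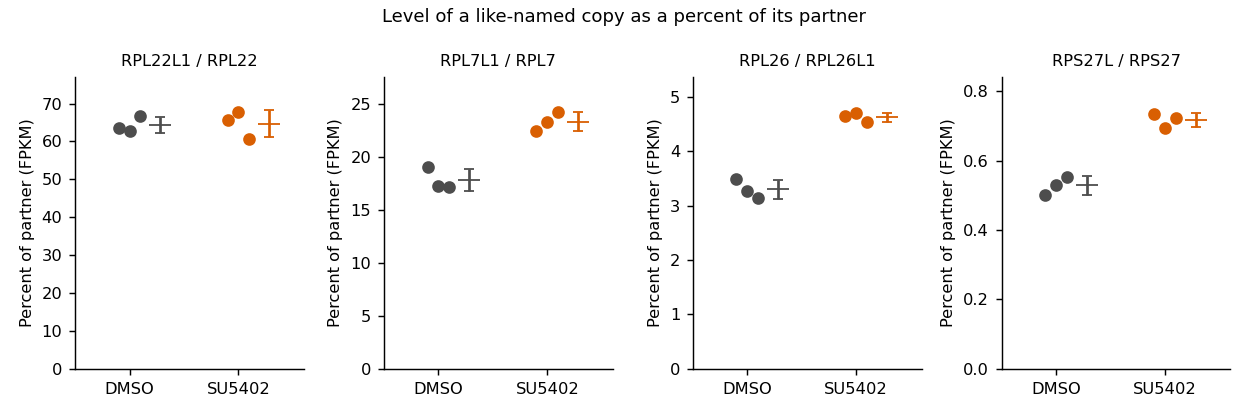
Level of a copy as a percent of its partner in FPKM (vertical axes, from 0) for 4 pairs, with 1 point per library and bars for the mean ± SD of 3 libraries. RPL22L1 to RPL22 overlaps between treatments, and the other 3 ratios are higher in every SU5402 library.

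RPL3L and RPS26 were near the limit of detection. RPL3L, which in mammals replaces RPL3 in heart and skeletal muscle, was covered by 16, 9 and 3 reads in the DMSO libraries and by 25, 20 and 2 in those with SU5402, at 0.35 (SE 1.07, limma adjusted p = 0.83). RPL3 had 22412, 22117 and 22525 normalized counts with DMSO and 18823, 17457 and 19542 with SU5402 and was called lower, at -0.27 (SE 0.06, limma adjusted p = 0.03). RPS26, a small subunit protein at the mRNA exit, was covered by 1, 1 and 2 reads in the DMSO libraries and by 2, 10 and 4 in those with SU5402, far under its fellow members, and was not tested. At such counts no difference was detectable, and why RPS26 had so few reads was not tested.

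The symbol rule misses subunit proteins that the files list under another symbol or none. Of these, 6 were taken from their descriptions after the files had been read. RACK1 and the gene without a symbol described as ribosomal protein L17 are not among the 6. RPSAP58, described as ribosomal protein SA, had 69867, 66682 and 70165 normalized counts with DMSO and 56487, 52730 and 58085 with SU5402, at -0.31 (SE 0.06, limma adjusted p = 0.019). RPS27 was at -0.30 (limma adjusted p = 0.032). FAU, in which a ribosomal protein is fused to a ubiquitin-like protein, was at -0.26 (limma adjusted p = 0.044). Of the 6 genes, 4 were called lower. RPL36AL was at -0.21 (limma adjusted p = 0.071), and RPS23, which lies on chromosome Z, at -0.37 (limma adjusted p = 0.18). With these 6 added, 50 of 71 genes tested were called lower and the median was -0.29.

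Mitochondrial ribosomal protein genes, which serve the separate ribosomes of mitochondria, had other values in the same libraries. Of 66 tested, 3 (4.55%) were called lower, beside 16.0% of all genes tested, and 5 higher, with a median log2 fold change of 0.08. MRPL27 was highest among those called, at 0.53 (SE 0.11, limma adjusted p = 0.02), and MRPL24 lowest, at -0.32 (SE 0.09, limma adjusted p = 0.045). Next to them were MRPL47, at 0.29 (SE 0.07, limma adjusted p = 0.037), and MRPS24, at -0.30 (SE 0.08, limma adjusted p = 0.047). The difference between the 2 groups of genes was not tested, since genes are not replicates. Other abundant genes were also set beside the members. These were 111 genes with a mean of at least 300 FPKM, outside the mitochondrial genome, the members and the 6 further subunit genes given above. RACK1, a small subunit protein, was not taken out. Of the 111, 29 (26.1%) were called lower and 18 higher, beside 16.0% and 14.4% of all genes tested. Their median was -0.05. Over the 2069 other genes shorter than 1000 bases the median was 0.05.

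Factors that work with the ribosome were taken as lists. Of 11 elongation and termination genes tested, 4 (36.4%) were called lower, beside 16.0% of all genes tested, and 2 higher. All 4 are elongation factors. EEF1A1, which brings tRNAs to the ribosome, had 293763, 275961 and 291582 normalized counts with DMSO and 251083, 246836 and 249440 with SU5402, at -0.20 (SE 0.05, limma adjusted p = 0.041). EEF1B2 and EEF1D, its exchange factors, were at -0.38 (limma adjusted p = 0.0047) and -0.36 (limma adjusted p = 0.011), and EEF2, which moves the ribosome along the mRNA, at -0.27 (limma adjusted p = 0.014). TPT1 and NACA, whose mRNAs carry the TOP motif in mammals, were at -0.14 (limma adjusted p = 0.2) and -0.17 (limma adjusted p = 0.11). Called higher were EEF2K, the kinase that inactivates EEF2, from 531 ± 65.7 to 1002 ± 88.9 normalized counts (SD, n = 3; 0.92, limma adjusted p = 0.0046), and EEF1A2, a form of EEF1A1 found in muscle and nerve, from 85.7 ± 25.7 to 180.2 ± 5.15 (1.10, limma adjusted p = 0.015).

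Of 38 initiation factor genes tested, 14 (36.8%) were called lower, beside 16.0% of all genes tested, and 1 higher, with a median of -0.11. EIF3M fell most, at -0.43 (SE 0.05, limma adjusted p = 0.0041), followed by EIF5B, which joins the subunits, at -0.39 (SE 0.06, limma adjusted p = 0.0068). Further subunits of the EIF3 complex were among those called, as was PABPC1, which binds the poly(A) tail, at -0.29 (limma adjusted p = 0.016). EIF5, which sets off GTP hydrolysis at the start codon, was higher, at 0.25 (SE 0.06, limma adjusted p = 0.026). RACK1, a scaffold protein of the small subunit, had 64375, 60855 and 62531 normalized counts with DMSO and 48095, 46414 and 49381 with SU5402, at -0.38 (SE 0.06, limma adjusted p = 0.0069). Of 55 ribosome assembly and nucleolar genes tested, 11 were called lower, a share near the 16.0% of all genes tested, and 2 higher, with a median of -0.09. DKC1, which modifies ribosomal RNA, was at -0.45 (SE 0.05, limma adjusted p = 0.0026) and PES1, which matures the large subunit, at -0.43 (SE 0.05, limma adjusted p = 0.0041). NPM3 was higher, at 0.50 (SE 0.07, limma adjusted p = 0.0061), and TAF1B, a factor of RNA polymerase I, at 0.38 (SE 0.07, limma adjusted p = 0.016).

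**Figure D5:**
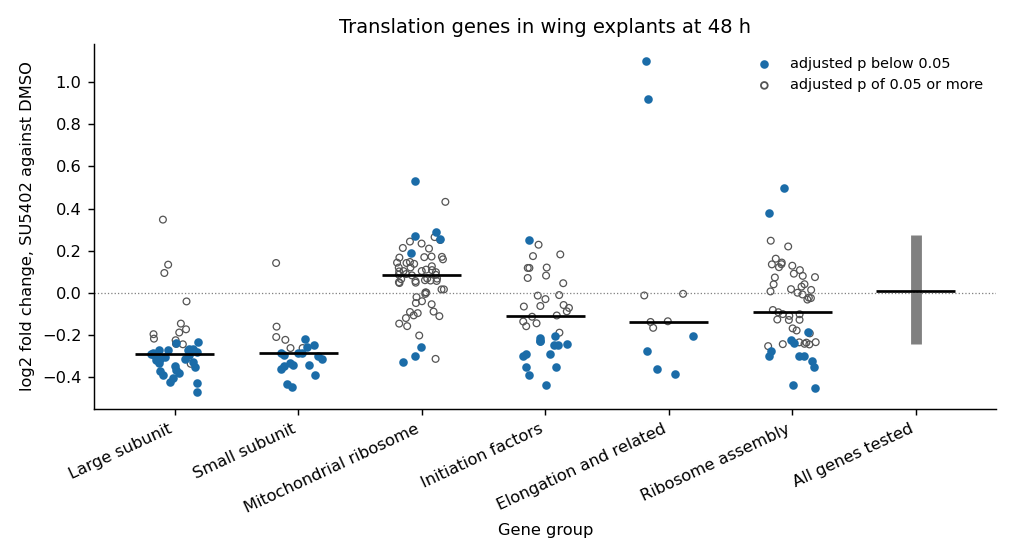
Log2 fold change (vertical axis) of single genes in the large subunit, the small subunit, the mitochondrial ribosome and 3 lists of translation genes, with black lines at the group median and filled points for an adjusted p below 0.05. The grey bar spans the quartiles of all 16324 genes tested, and the medians run from -0.29 in both subunits to 0.08 in the mitochondrial ribosome.

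Of 15 genes tested that act on ribosomal protein genes or on TOP mRNAs, 3 were called lower, a share near the 16.0% of all genes tested, and none higher. MYCN, a member of the Myc family, had 2353, 2439 and 2410 normalized counts with DMSO and 904, 828 and 814 with SU5402, a change of -1.50 (SE 0.06, limma adjusted p = 2.4e-04). LARP1, which binds the start of TOP mRNAs and holds them stable, had 9405, 10056 and 9550 with DMSO and 7053, 7236 and 6180 with SU5402, a change of -0.51 (SE 0.08, limma adjusted p = 0.0091). RPS6KB1, the S6 kinase that phosphorylates RPS6, was at -0.24 (SE 0.07, limma adjusted p = 0.048). MYC and MTOR were at 0.20 (limma adjusted p = 0.32) and 0.12 (limma adjusted p = 0.22). The part of any of these genes in the level of ribosomal protein genes was not tested.

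Markers of other cell types moved between the same libraries. Summed over 8 endothelial genes, the level was 18638 to 19200 normalized counts with DMSO and 2210 to 2464 with SU5402, and CDH5, which defines these cells, went from a mean of 7849 to 41.5. Sums over 11 ectoderm genes were 23875 to 29162 and 63113 to 68725, and those over 11 muscle genes 1361 to 1622 and 7224 to 9754. Red blood cell genes, 10 in the files, summed to 6685 to 8230 and 20348 to 29638, and 10 macrophage genes to 1115 to 1226 and 2114 to 2574. The 9 limb mesenchyme genes summed to 63779 to 67876 with DMSO and 54165 to 59582 with SU5402. Of these, 3 (33.3%) were called lower and 1 higher, beside 16.0% and 14.4% of all genes tested. Their median log2 fold change was 0.03 and 5 of them were above 0, so the lower sum does not stand for most of them. The part of these shifts in the level of ribosomal protein genes was not tested.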

How the data were processed

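Explant RNA was selected on poly-T beads, and per the labels and the study's methods reads were mapped with HISAT2 (version 2.0.5) to GRCg6a and counted on genes with featureCounts (version 1.5.0-p3). The authors deposited, per library, a signal value, which is the gene's reads divided by the DESeq2 (version 1.20.0) size factor, and FPKM values. They also deposited treatment means and their own fold changes and p-values, which were not used. Within each library the signal values came in steps worth 1 read, and dividing by that step gave whole reads for 100% of them at a tolerance of 0.01.

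The fit was limma (version 3.58.1, R version 4.3.3) on log2(value + 1), with no trend, over genes reaching 10 in 3 or more libraries. Alternatives were a pseudocount of 0.5, no filter, a filter of 50, edgeR (version 4.0.16) with TMM or RLE, DESeq2 (version 1.42.0), scaling by total reads, upper quartile or TMM, an intensity trend, a replicate block and each library left out. The fit was also run on simulated data, with the same dispersion for every gene and known size factors. That run cannot test the scaling, or genes of unequal spread.

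The members and lists were chosen with earlier results of these data known. Genes named are the 5 members with the largest fall, copies and their partners, the 3 highest and 3 lowest by FPKM, the median member, RPLP0, RPLP1, RPLP2, RPS6, RPL5 and RPL11, and list genes past the thresholds. Any further gene, such as RPL23A, RPL35, RPL39, RPL17, RPL37, TPT1, NACA, MYC or MTOR, was chosen with its values known. Some genes enter the counts but are not reported singly here. Sequences were not used here.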

Additional observations from a re-analysis of the deposited data

How the results depend on the processing

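No alternative turned the direction of the median log2 fold change of ribosomal protein genes or called a member higher, and none called a member past 2-fold. The median of -0.29 was -0.24 when libraries were scaled to total reads and -0.23 with upper-quartile scaling. With each library left out it lay between -0.31 and -0.26, and the number of members called lower lay between 21 and 38 against 46. The share of reads on members differed by -1.02 to -0.88 percentage points with a library left out. Of the 46, 20 were called with every library left out in turn and 15 under all 17 alternatives. The difference between subunit medians, -0.001, lay between 0.00375 and 0.0185 with a library left out. Over all genes tested, 4958 were called, and 3335 to 3787 with a library left out. RPL3L lay between -0.32 and 1.36 with a library left out, turning to -0.20 without DMSO replicate 3 and to -0.32 without SU5402 replicate 1, and RPL38 turned to 0.00891 with scaling to total reads and to 0.0156 with upper-quartile scaling. Deviations of libraries with the same number correlated across genes at 0.04, 0.003 and 0.06, and those of other pairs at -0.07 to 0.03. These values cannot decide whether the replicates were run as pairs, since a shared effect on few genes would not show across all genes. With the replicate block, 17 members and 3380 genes in all were called. RPL3L and RPS26 rest on few reads.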
